A study of Mus musculus with 10 samples.

Results

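The ligands and receptors followed here are 9 genes of the tumour necrosis factor (TNF) family in lactating mammary glands of BALB/c mice, 4 of them ligands (Tnf, Lta, Ltb and Tnfsf10) and 5 of them receptors (Tnfrsf1a, Tnfrsf1b, Ltbr, Fas and Tnfrsf12a). They were chosen by gene symbol through their Ensembl identifiers, and all 9 were found among the 35275 genes of the deposited expression table. On lactation day 3, a gland of the 4th pair had received 50 µL of lipopolysaccharide (LPS) from E. coli 055:B5 at 0.4 mg/mL through the teat, and the gland of the opposite side sterile phosphate-buffered saline (PBS). Both were collected 12 h later. Every library thus comes from an injected gland, and BALB/c is the only strain. There are 5 libraries from LPS and 5 from PBS glands, at 15734303 to 18869545 counted reads per library. The labels give 9 animals and do not say which of them the 10 libraries came from, so a p-value reflects only how much these glands vary, which may be partly technical. Values are FPKM, read density over gene length scaled to the library's counted reads, given as mean ± SD with n = 5 per group. Changes are LPS minus PBS on the log2(FPKM + 1) scale with their standard error (SE), tested by limma with Benjamini-Hochberg adjustment over all 11414 genes tested.

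TNF is a cytokine released early by macrophages and other cells that meet endotoxin. It signals through TNFR1 (Tnfrsf1a), which most cells carry and which holds an intracellular death domain, and through TNFR2 (Tnfrsf1b), which is found mainly on leukocytes and endothelium. Lymphotoxin alpha (Lta) binds the same receptors as a soluble trimer, and joined to lymphotoxin beta (Ltb) it forms the membrane ligand of the lymphotoxin beta receptor (Ltbr), a pathway known for building lymph nodes. TRAIL (Tnfsf10) and Fas ligand signal for apoptosis through their own death domain receptors. Fn14 (Tnfrsf12a) is the receptor of the cytokine TWEAK and is known to be induced in injured epithelia.

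Of the 9 genes, 2 rose in LPS glands: Tnfsf10, from 6.49 ± 1.16 to 11.5 ± 2.62 FPKM, and Tnfrsf12a, from 69.6 ± 9.57 to 109.8 ± 21.2 FPKM. None of the 8 tested genes fell, and all 8 had a log2 change above 0. Over all tested genes 2.63% rose and 0.605% fell, 300 against 69 genes, a split that was 233 against 145 with quantile normalization and 128 against 348 when values were scaled to the FPKM sum left without milk protein genes. The share that rose was 2.04% and 1.12% with these scalings, 2.32% with median-of-ratios scaling, 2.67% in edgeR and 4.98% in DESeq2. Every LPS gland was above every PBS gland for the same 2 members, Tnfsf10 and Tnfrsf12a, as it was for 3.53% of all tested genes. Tnf, Tnfrsf1b, Fas, Ltb, Tnfrsf1a and Ltbr did not pass the test, which took no pairs of glands. With the replicate number as a block Tnf passed (limma adjusted p = 0.00330), in a fit in which 962 genes rose. Without pairs, Tnf and Tnfrsf1b, with Tnfsf10 and Tnfrsf12a, were among 4 members with an unadjusted p below 0.05. That level was reached by 16.5% of all tested genes. Lta was too low for the filter on expression. The median log2 change of the 8 tested members was 0.42, beside 0.05 for all tested genes. The direction of the Tnfrsf1a and Ltbr values, both close to 0, turned with 2 of the scalings tried.

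**Figure D1:**
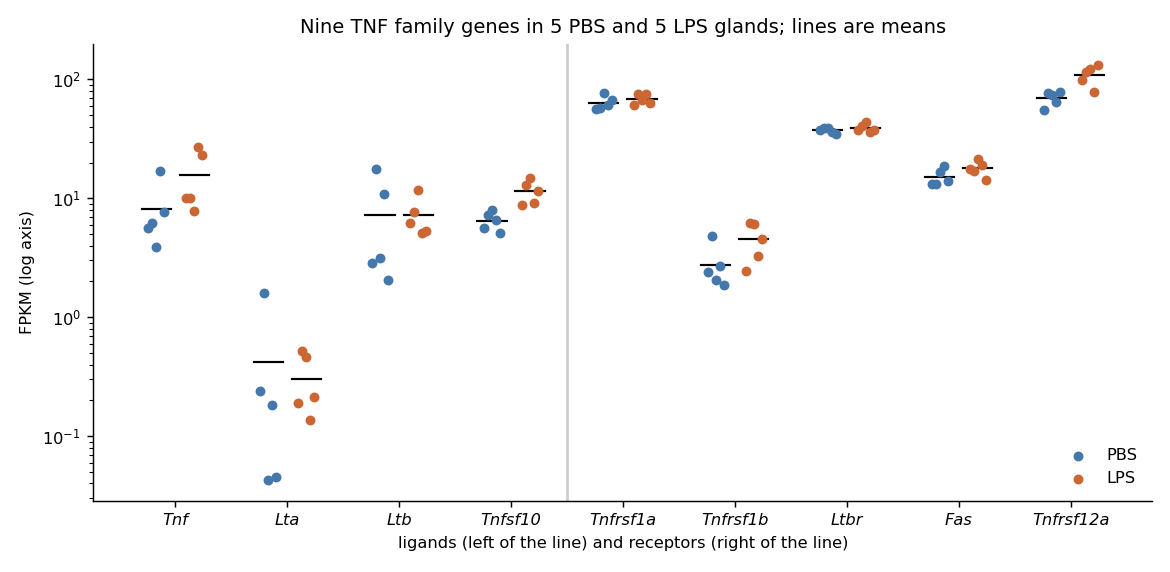
FPKM on a log axis of the 4 ligand and 5 receptor genes in each of 5 PBS (blue) and 5 LPS (orange) glands, with a line at each group's mean. The groups are apart for Tnfsf10 and Tnfrsf12a, while for Ltb and Lta the highest gland, at 17.5 and 1.59 FPKM, is a PBS gland.

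The members differ in where they lie and in the sequence before their start sites. Ltb, Tnf and Lta form a cluster on chromosome 17 of build mm10, with 3060 bases between Ltb (35194439 to 35196320, plus strand) and Tnf (35199381 to 35202007, minus strand) and 1157 bases between Tnf and Lta (35203165 to 35205351, minus strand). Tnfrsf12a lies on the same chromosome (23675445 to 23677468, minus strand) and Tnfsf10 on chromosome 3 (27317028 to 27342427, plus strand). All 9 are protein-coding genes in GENCODE M21, and no gene on the opposite strand overlaps them. The sequence before the start site is shown for the 2 genes that rose and for the cluster neighbours Tnf and Ltb, whose windows hold motif matches. It was taken from the 250 bases before the RefSeq start site (GRCm38.p6), runs 5′ to 3′ on the strand of the gene, and carries motif matches in capitals. For Ltb, Tnfsf10 and Tnfrsf12a the RefSeq start sites (35194507, 27317077 and 23677449) lie inside the GENCODE genes, so the last 68, 49 and 19 bases of those windows are not shown, while for Tnf both annotations start at the same base.
Tnf (chr17:35202008-35202257, minus strand): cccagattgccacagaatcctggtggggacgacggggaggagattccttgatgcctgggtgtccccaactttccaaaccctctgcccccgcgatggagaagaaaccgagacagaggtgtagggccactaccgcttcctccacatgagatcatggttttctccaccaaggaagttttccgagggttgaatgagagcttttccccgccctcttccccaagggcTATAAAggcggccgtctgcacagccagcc
Ltb (chr17:35194257-35194438, plus strand): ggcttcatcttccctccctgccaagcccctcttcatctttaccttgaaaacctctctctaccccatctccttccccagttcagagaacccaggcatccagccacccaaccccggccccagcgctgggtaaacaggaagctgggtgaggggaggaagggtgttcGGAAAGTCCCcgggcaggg
Tnfsf10 (chr3:27316827-27317027, plus strand): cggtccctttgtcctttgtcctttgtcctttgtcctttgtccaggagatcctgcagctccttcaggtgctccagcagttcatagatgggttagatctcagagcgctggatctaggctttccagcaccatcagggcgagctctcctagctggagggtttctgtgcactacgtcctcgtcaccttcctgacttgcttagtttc
Tnfrsf12a (chr17:23677469-23677699, minus strand): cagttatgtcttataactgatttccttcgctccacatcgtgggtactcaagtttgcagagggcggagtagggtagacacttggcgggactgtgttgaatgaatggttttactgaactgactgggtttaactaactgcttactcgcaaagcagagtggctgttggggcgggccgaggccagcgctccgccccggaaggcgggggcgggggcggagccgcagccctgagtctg
The capitals in Tnf are the TATA box letters TATAAA, whose first base lies 29 bases before the RefSeq start site. Those in Ltb are a match to the consensus motif of NF-kB on the other strand, from 87 to 78 bases before the RefSeq start site. The NF-kB consensus, the letters TATAAA and the core of the interferon-stimulated response element were searched on both strands of the whole 250 bases, and in this window 3.90%, 12.4% and 2.98% of 32851 RefSeq promoter windows hold a match. Of the 9 members, 1 window held the NF-kB consensus (Ltb), 2 held TATAAA (Tnf and Lta) and 1 held the interferon element core (Tnfrsf1b). The windows of Tnfsf10 and Tnfrsf12a held no match to these motifs. No matches of different motifs overlapped.

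Tnf, the founding ligand, was at 5.63, 6.22, 3.93, 16.9 and 7.74 FPKM in PBS replicates 1 to 5 and at 10.1, 10.1, 7.86, 26.8 and 23.3 FPKM in LPS replicates 1 to 5. LPS replicates 4 and 5 stood above the other LPS glands and PBS replicate 4 above the other PBS glands, so the groups overlapped. The mean went from 8.08 ± 5.10 to 15.6 ± 8.73 FPKM, a log2 change of 0.86 ± 0.37 that did not pass the test (adjusted p = 0.260). These values rest on 109 to 700 reads per library. Within every replicate number the LPS gland was above the PBS gland, though the labels do not say that a number marks a single mouse. With the replicate number as a block limma called Tnf (adjusted p = 0.00330), in a fit in which 962 genes rose, beside 300 without the block. The 3 tested genes whose log2(FPKM + 1) ran closest to Tnf over the 10 glands were Klf10 (Pearson r = 0.93), Ier5l (0.90) and Junb (0.90). Klf10 and Junb encode transcription factors of immediate early type.

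Lta was at 0.240, 1.59, 0.0428, 0.184 and 0.0452 FPKM in PBS replicates 1 to 5 and at 0.192, 0.518, 0.460, 0.136 and 0.213 FPKM in LPS replicates 1 to 5. Only PBS replicate 2 exceeded 1 FPKM, with 37 reads, while the other libraries held 1 to 13 reads. In the fit without a filter its log2 change was -0.04 ± 0.23 (adjusted p = 0.973), and 0.438% of genes rose in that fit. At this depth no change of Lta was detectable.

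Ltb differed more within the groups than between them. It was at 2.85, 17.5, 3.13, 10.8 and 2.07 FPKM in PBS replicates 1 to 5 and at 6.17, 7.63, 11.7, 5.13 and 5.29 FPKM in LPS replicates 1 to 5. The highest glands of all were PBS 2, LPS 3 and PBS 4, and the lowest were PBS 1, 3 and 5. The means of 7.26 ± 6.71 and 7.18 ± 2.72 FPKM did not differ beyond this spread (log2 change 0.30 ± 0.44, adjusted p = 0.816), and on reads edgeR gave a log2 change of -0.03.

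B and T cell transcripts followed the same glands. Summed over 18 B and T cell markers, their FPKM came to 89.9 (PBS replicate 2), 40.9 (PBS replicate 4), 30.6 (LPS replicate 3) and 10.1 (LPS replicate 2), against 1.46 to 2.94 for each of the other 6 glands. Over the groups the sum ranged from 1.67 to 89.9 FPKM in PBS and from 1.46 to 30.6 FPKM in LPS glands, and 12 of the 18 markers were at 0 in at least 1 gland. The 4 glands with the highest sums were also the 4 with the highest Ltb. The B cell receptor component Cd79a reached 12.7 FPKM in the first of them and was at 0 in PBS replicate 3. Ccl21a, a chemokine gene of lymph node stroma, reached 66.9 FPKM (PBS replicate 2) and 27.2 FPKM (PBS replicate 4) and did not exceed 4.85 FPKM elsewhere. The other stroma markers did not all follow. Ccl19 was also highest in PBS replicate 2, at 7.67 FPKM, but Cxcl13 was at 16.2 to 130.7 FPKM over all glands. Madcam1 was lower in PBS replicates 2 and 4 (5.47 and 2.77 FPKM) than in PBS replicates 1, 3 and 5 (8.96, 10.8 and 9.59 FPKM). In bulk RNA, fewer cells of a type and less RNA per cell cannot be told apart.

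Where these markers were low, in 6 glands, Ltb was at 2.07 to 3.13 FPKM in the 3 PBS glands and at 5.13 to 6.17 FPKM in the 3 LPS glands, which did not overlap. The 4 glands left out were also the 4 with the highest Ltb. The lack of overlap thus follows in part from the choice of glands. Every LPS gland was above every PBS gland in these 6 for 10.5% of all tested genes. The log2 change of Ltb there was 0.83, with an adjusted p of 0.0851 in a fit that called 8 genes higher in all (0.0701%). With the B and T cell score as a covariate over all 10 glands the log2 change was 0.75 with an adjusted p of 0.00487, in a fit in which 5.58% of genes rose. That score was highest in the same 4 glands, so it too was not independent of Ltb. The 3 genes closest to Ltb over the 10 glands were Ms4a6b, Clec4n and Crlf3, each with a Pearson r of 0.98. Clec4n encodes the fungal receptor dectin-2 of myeloid cells.

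**Figure D2:**
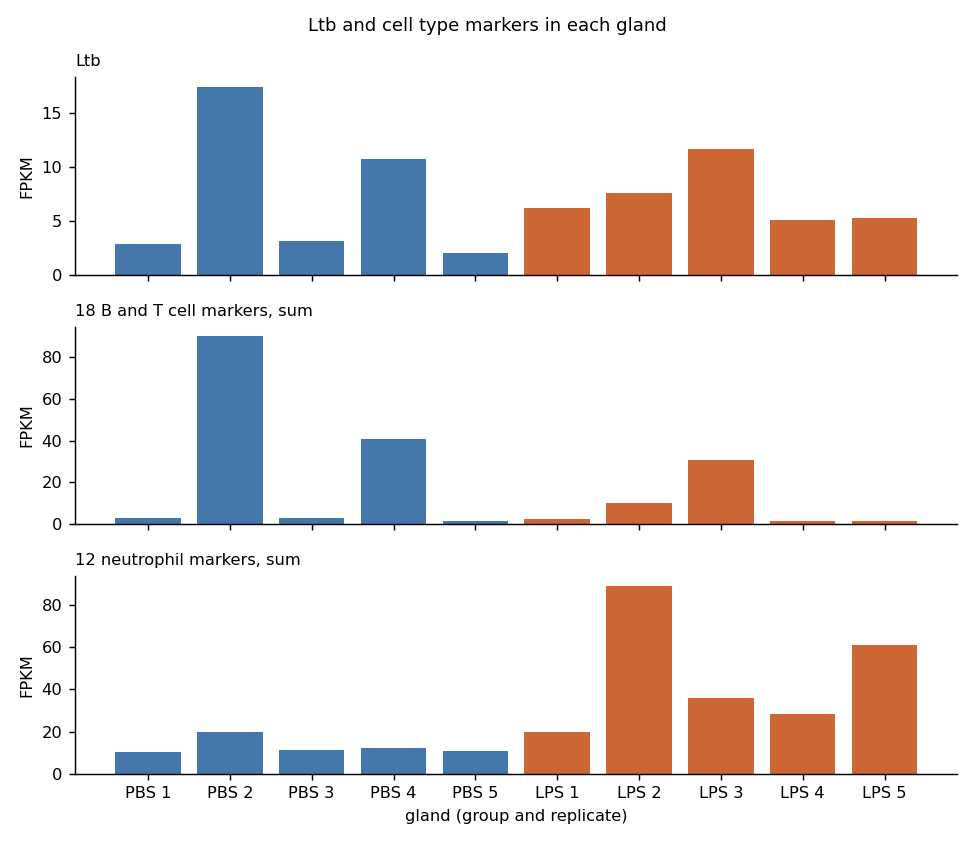
FPKM in each gland of Ltb (top), of 18 B and T cell markers summed (middle) and of 12 neutrophil markers summed (bottom), with PBS glands in blue and LPS glands in orange. Ltb and the lymphocyte sum are both highest in PBS replicate 2, at 17.5 and 89.9 FPKM, whereas the neutrophil sum is highest in LPS replicate 2, at 89.1 FPKM.

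Tnfsf10, the TRAIL gene, was at 5.58, 7.23, 7.95, 6.59 and 5.11 FPKM in PBS replicates 1 to 5 and at 8.77, 13.03, 15.0, 9.14 and 11.6 FPKM in LPS replicates 1 to 5. Every LPS gland was above every PBS gland. It rose 1.77-fold (log2 change 0.73 ± 0.15, adjusted p = 0.0228), and edgeR and DESeq2 on recovered reads gave adjusted p-values of 0.00969 and 2.23e-05. The authors' deposited table lists it with a log2 fold change of 0.70 and an adjusted p of 1.59e-05. The limma call ended, with log2 changes of 0.63 to 0.74, without LPS replicate 2 (adjusted p = 0.0696), 3 (0.0542) or 5 (0.0504) and without PBS replicate 1 (0.0663), 4 (0.0598) or 5 (0.0562). It also ended with no filter on low values (0.0724), with the milk protein scaling (0.0535) and in the 6 glands low in lymphocyte markers (0.277, log2 change 0.60).

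The death receptor of TRAIL in mice, Tnfrsf10b (DR5), rose with its ligand. It was at 3.98, 5.10, 5.82, 4.79 and 4.89 FPKM in PBS replicates 1 to 5 and at 7.17, 7.49, 6.89, 7.01 and 7.44 FPKM in LPS replicates 1 to 5. The LPS glands lay close together and above all PBS glands, and the log2 change was 0.48 ± 0.09 (adjusted p = 0.0188). The call ended without LPS replicate 2 (0.0567) or PBS replicate 4 (0.0557), with the milk protein scaling (0.101), and in the 6 glands low in lymphocyte markers (0.280), where the log2 change was 0.49. The decoy receptors of mouse TRAIL, Tnfrsf22 and Tnfrsf23, were looked at after their values were seen. Tnfrsf22 had means of 2.74 ± 0.424 FPKM in PBS and 1.97 ± 0.203 FPKM in LPS glands without overlap (limma adjusted p = 0.125). DESeq2 gave it an adjusted p of 0.0234, in a fit in which 300 genes fell. The authors' deposited table lists it with a log2 fold change of -0.47 and an adjusted p of 0.0360. Tnfrsf23 had means of 12.1 ± 3.44 and 10.9 ± 4.12 FPKM (limma adjusted p = 0.814). These 2 genes are close relatives that counting may not fully separate, and their levels are uncertain. Over the 10 glands St3gal4, Tbrg1 and Cd209c ran closest to Tnfsf10 (Pearson r = 0.98 for each).

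**Figure D3:**
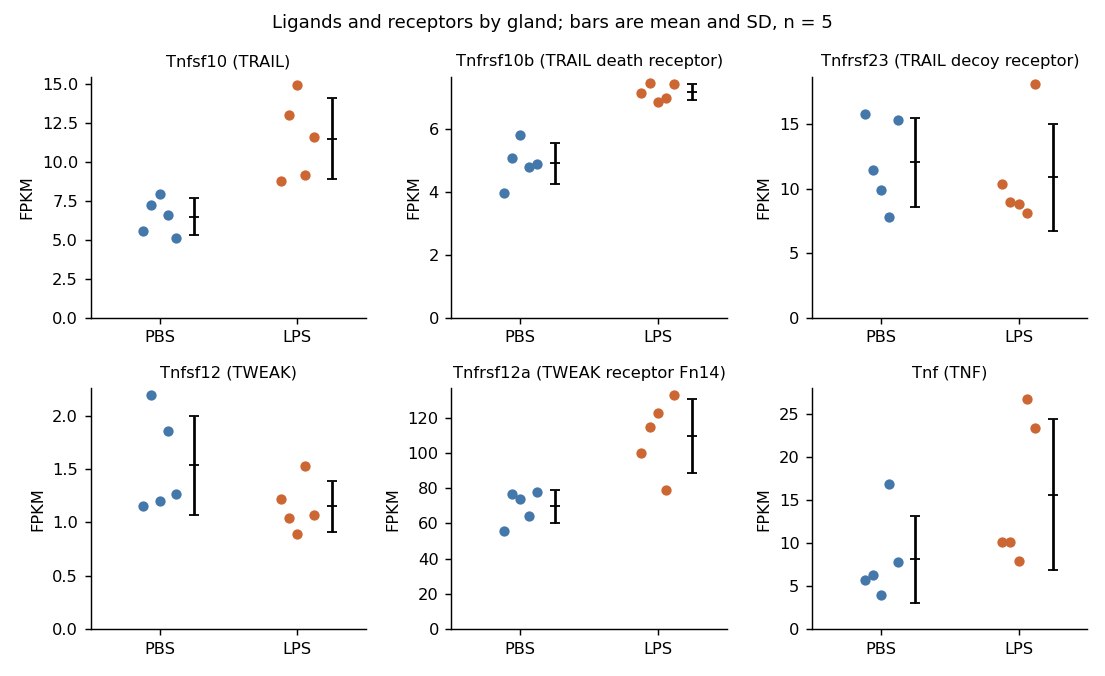
FPKM from 0 in each gland for TRAIL (Tnfsf10) with its death receptor Tnfrsf10b and decoy receptor Tnfrsf23, for TWEAK (Tnfsf12) and its receptor, and for Tnf, with points for glands and bars for mean and SD (n = 5). The PBS and LPS points are apart for Tnfsf10, Tnfrsf10b and Tnfrsf12a, and overlap for Tnfrsf23, Tnfsf12 and Tnf.

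Tnfrsf12a, the receptor of TWEAK, had the highest mean of the 9 members in both groups. It was at 55.4, 76.9, 73.8, 64.3 and 77.7 FPKM in PBS replicates 1 to 5 and at 99.7, 114.8, 122.9, 78.7 and 132.7 FPKM in LPS replicates 1 to 5. The groups did not overlap, though LPS replicate 4 was only just above the highest PBS gland. The log2 change was 0.64 ± 0.14, a 1.58-fold rise (adjusted p = 0.0320, and 0.0361 in edgeR and 0.00401 in DESeq2). In the authors' deposited table its log2 fold change is 0.54 with an adjusted p of 0.00450. The limma call ended without LPS replicate 2 (0.0932), 3 (0.0823) or 5 (0.0658), without PBS replicate 1 (0.0877) or 4 (0.0907), and in the 6 glands low in lymphocyte markers (0.418, log2 change 0.56). It ended as well with no filter (0.0891) and with median-of-ratios, quantile or milk protein scaling (0.0559, 0.0938 and 0.121). Its ligand gene Tnfsf12, named after its values were seen, was at 1.53 ± 0.466 FPKM in PBS and 1.15 ± 0.243 FPKM in LPS glands (adjusted p = 0.470), with at most 53 reads in a library. The genes closest to Tnfrsf12a over the 10 glands were Cmpk2 (Pearson r = 0.97), Nos2 (0.95), the inducible nitric oxide synthase, and Emp2 (0.95).

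Tnfrsf1a, the main TNF receptor, was at 56.7, 57.1, 76.2, 60.4 and 67.7 FPKM in PBS replicates 1 to 5 and at 61.3, 75.5, 66.5, 75.5 and 63.2 FPKM in LPS replicates 1 to 5. The highest gland was a PBS gland and the groups overlapped almost wholly (log2 change 0.11 ± 0.10, adjusted p = 0.689). Tnfrsf1b was far lower, at 2.39, 4.83, 2.04, 2.70 and 1.85 FPKM in PBS replicates 1 to 5 and at 2.46, 6.18, 6.10, 3.28 and 4.59 FPKM in LPS replicates 1 to 5. LPS replicates 2, 3 and 5 were high, and so was PBS replicate 2, the gland richest in B and T cell transcripts. The log2 change of Tnfrsf1b, 0.55 ± 0.23, did not pass the test (adjusted p = 0.256, and 0.191 in edgeR and 0.108 in DESeq2). With the B and T cell score as a covariate it was 0.73 with an adjusted p of 0.0256, in a fit in which 5.58% of genes rose. In the 6 glands low in lymphocyte markers it was 0.50 with an adjusted p of 0.434. The level of Tnfrsf1b per length was 4.51 ± 2.35% of that of Tnfrsf1a in PBS and 6.60 ± 2.31% in LPS glands. The log2 of this ratio was higher in LPS glands by 0.61, within the spread between glands (exact permutation test, two-sided, p = 0.190, where the smallest possible p is 0.00794).

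Neutrophil transcripts moved with the treatment. The summed level of 12 neutrophil markers was 10.4 to 19.97 FPKM in PBS and 19.9 to 89.1 FPKM in LPS glands. Of the 8 tested markers 4 rose, beside 2.63% of all tested genes, and none of the 12 was at 0 in any gland. The sum was highest in LPS replicates 2 and 5, at 89.1 and 60.7 FPKM, followed by LPS replicate 3 at 36.1 FPKM, the same 3 LPS glands in which Tnfsf10, Tnfrsf12a and Tnfrsf1b were highest. LPS replicate 1, at 19.91 FPKM, was just below PBS replicate 2, at 19.97 FPKM, so the groups overlapped. The part of neutrophil RNA in the values of these 3 genes was not tested. The sum of 12 macrophage and monocyte markers was 59.0 to 150.3 FPKM in PBS and 48.5 to 96.6 FPKM in LPS glands, and 0 of its 10 tested genes were called by limma. Luminal epithelial markers, milk protein genes included, summed to 115238 to 147427 FPKM in PBS and 77004 to 105558 FPKM in LPS glands. The milk protein genes Wap and Csn2 made up most of these sums, which therefore do not describe the other luminal markers. Of the 8 tested luminal markers 1 rose and 0 fell, beside 2.63% and 0.605% of all tested genes. Their median log2 change was -0.04.

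Ltbr was at 37.3, 39.3, 39.1, 35.8 and 34.8 FPKM in PBS replicates 1 to 5 and at 37.8, 40.9, 43.7, 36.1 and 37.6 FPKM in LPS replicates 1 to 5. It was the steadiest member, with groups that overlapped and a log2 change of 0.07 ± 0.08 (adjusted p = 0.736). Fas, the death receptor of Fas ligand, was at 13.1, 13.2, 16.8, 18.5 and 14.1 FPKM in PBS replicates 1 to 5 and at 17.7, 17.1, 21.3, 18.9 and 14.3 FPKM in LPS replicates 1 to 5. PBS replicate 4 was above all LPS glands but replicates 3 and 4, and the log2 change was 0.22 ± 0.12 (adjusted p = 0.395). The Fas ligand gene Fasl was listed with means of 0.165 ± 0.0675 FPKM in PBS and 0.205 ± 0.129 FPKM in LPS glands, from at most 13 reads in a library.

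Set in order of FPKM, PBS glands had Tnfrsf12a and Tnfrsf1a at the top, and the ranges of these 2 overlapped. Ltbr and then Fas followed, each apart from the receptor above it. The ranges of Fas and Tnf, of Tnf and Ltb, and of Ltb and Tnfsf10 overlapped. Tnfrsf1b and Lta were the lowest, each apart from its neighbour above. In LPS glands Tnfrsf12a was apart from Tnfrsf1a, Tnfsf10 stood above Ltb in all 5 glands, the ranges of Ltb and Tnfrsf1b overlapped, and the order was otherwise as in PBS glands.

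**Figure D4:**
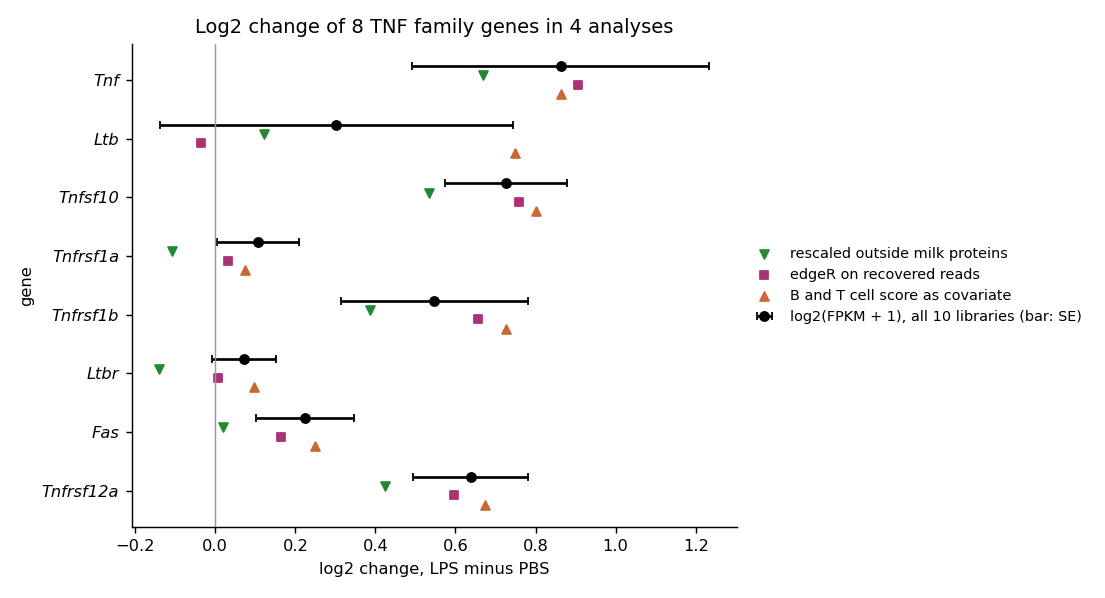
Log2 change, LPS minus PBS, of the 8 tested members: by limma on log2(FPKM + 1) with its SE (black), with the milk protein scaling (green), by edgeR on recovered reads, which has no added 1 (purple), and with the B and T cell score as a covariate (orange). Ltb moves from -0.03 to 0.75 between these analyses, and Tnfsf10 from 0.53 to 0.80.

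The wider pathway was read from 7 lists with 113 genes in all, of which 3 (Fas, Tnfrsf1a and Tnfsf10, in the death receptor list) are also among the 9 members. Of the 85 tested, 8 rose and 1 fell, beside 2.63% and 0.605% of all tested genes, and their median log2 change was 0.13. Of 14 other ligands of the family, only Tnfsf12, Tnfsf13 and Tnfsf13b were expressed highly enough to test. None of the 3 was called by limma or edgeR, and none had an unadjusted p below 0.05. Tnfsf13 (APRIL) was at 4.85 ± 0.580 and 4.81 ± 1.14 FPKM and Tnfsf13b (BAFF), which keeps B cells alive, at 1.63 ± 0.812 and 1.30 ± 0.455 FPKM in PBS and LPS glands. Of 23 other receptors 10 were tested, and Tnfrsf10b was the 1 that rose.

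The list of the death receptor pathway had 5 of 19 tested genes higher and 1 lower, with a median log2 change of 0.23, beside 2.63% and 0.605% of all tested genes. None of the 5 rises was left without LPS replicate 2 or PBS replicate 4, 1 was left without LPS replicate 3, 2 without PBS replicate 1 and 3 without PBS replicate 5. With no filter and with the milk protein scaling 1 gene of this list rose. Those that rose included Tnfsf10, Tnfrsf10b, Mlkl and Bak1. Mlkl, the pore-forming effector of necroptosis, rose by 1.00 ± 0.21 on the log2 scale, with 11.1 ± 3.35 FPKM in PBS and 23.2 ± 6.31 FPKM in LPS glands (adjusted p = 0.0213). Bak1, which permeabilizes mitochondria, rose by 0.68 ± 0.14, with 11.7 ± 1.76 and 19.5 ± 3.93 FPKM (adjusted p = 0.0197). Faim2, an inhibitor of Fas signalling named after its values were seen, fell from 2.22 ± 0.333 to 1.28 ± 0.204 FPKM (adjusted p = 0.0312).

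Of the 23 TNF-induced genes 19 were tested, of which 3 were higher and 0 lower in limma and in edgeR. Over all tested genes 2.63% were higher in limma and 2.67% in edgeR. The median log2 change of the list was 0.30, beside 0.05 for all tested genes. In limma 7 of its genes had an unadjusted p below 0.05, as 16.5% of all tested genes did. Tnfaip2 rose from 4.39 ± 1.60 to 16.8 ± 6.89 FPKM, Ccl2, a chemokine for monocytes, from 6.64 ± 2.61 to 24.3 ± 10.8 FPKM, and Ccl20, the ligand of CCR6, from 16.5 ± 4.29 to 40.7 ± 16.7 FPKM. Their adjusted p-values were 0.00825, 0.0157 and 0.0168. All 3 kept the call whichever single library was left out. In the 6 glands low in lymphocyte markers none kept it (0.0851, 0.248 and 0.230), with log2 changes of 1.41, 1.29 and 1.29 beside 1.67, 1.67 and 1.22 in all 10. Ccl2 and Ccl20 also lost it with no filter (0.0608 and 0.0612), and Ccl20 with the milk protein scaling (0.0553).

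The other 4 TNF-induced genes, Il6, Ptgs2, Sele and Selp, were too low for the filter and are named after their values were seen. Il6, an interleukin of the acute phase response, was at 0.0509 to 0.234 FPKM in PBS and 0.288 to 5.17 FPKM in LPS glands. Ptgs2, the inducible cyclooxygenase, was at 0.0531 to 0.286 and 0.571 to 2.98 FPKM, and Sele, the selectin of activated endothelium, at 0.0609 to 0.236 and 0.309 to 1.38 FPKM. The groups did not overlap for these 3, and they did for Selp, another endothelial selectin, at 0.527 to 0.896 and 0.786 to 3.48 FPKM. Every LPS gland was above every PBS gland for 3.53% of tested genes, a share that leaves out genes under the filter such as these. In the limma fit without a filter, in which 0.438% of genes rose, the adjusted p-values of the 4 genes were 0.0873, 0.0749, 0.0927 and 0.202. The authors' deposited table lists all 4 as higher, with adjusted p-values of 2.83e-07, 4.93e-09, 2.91e-05 and 0.000651. Of the 113 pathway genes the authors' deposited table lists 18, these 4 included.

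The lists closest to the TNF receptor itself had no call by edgeR or by limma with group as the only term. DESeq2 called 1 gene of the TNFR1 complex higher, in a fit in which 4.98% of genes rose. With the replicate number as a block, in a fit in which 962 genes rose, limma called 3 genes of the TNFR1 complex higher. That fit also called 1 gene of TNF release and mRNA control and 1 of the non-canonical NF-kB pathway. Without LPS replicate 1 limma called 1 gene of the TNFR1 complex and 1 of TNF release and mRNA control, in a fit in which 429 genes rose. With the B and T cell score as a covariate limma called 3 of the TNFR1 complex and 1 of the non-canonical pathway, in a fit in which 5.58% of genes rose. In the limma fit with group alone, the TNFR1 signalling complex had 0 of 23 genes called and 4 at an unadjusted p below 0.05. The genes of TNF release and mRNA control had 0 of 13 and 3. Of the non-canonical NF-kB pathway, which Ltbr drives, 0 of 8 genes were called in that fit and 1 had an unadjusted p below 0.05. Over all tested genes 2.63% rose, 0.605% fell and 16.5% had an unadjusted p below 0.05. Counts of 0 in lists this short do not set them apart from these shares. The median log2 changes of the TNFR1 complex, the release and mRNA control genes and the non-canonical pathway were 0.06, 0.11 and 0.06, beside 0.05 for all tested genes. Birc3, an inhibitor of apoptosis recruited to TNFR1, was at 37.0 ± 4.61 and 43.1 ± 3.91 FPKM (adjusted p = 0.289, and 0.0494 with the covariate), and Rbck1, of the linear ubiquitin ligase, at 24.6 ± 6.61 and 27.4 ± 5.54 FPKM. Litaf was at 103.4 ± 12.4 and 125.0 ± 8.90 FPKM (adjusted p = 0.163), Zfp36l2, which binds unstable mRNAs, at 87.5 ± 11.7 and 94.2 ± 12.6 FPKM, and Nfkb2, the p100 precursor, at 22.4 ± 5.86 and 28.4 ± 7.52 FPKM (adjusted p = 0.435).

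The union of the 7 lists depended on single libraries. Without LPS replicate 2 or PBS replicate 4 the number that rose was 3, without LPS replicate 3 it was 4 and without PBS replicate 1 it was 5. The single fall was absent without LPS replicate 2 or 3 or PBS replicate 1, 2, 4 or 5. In the 6 glands low in lymphocyte markers 0 genes of the lists were called by limma. Mlkl and Bak1 lost the call without LPS replicate 2 or 3 or PBS replicate 1 or 4 (adjusted p up to 0.0660 and 0.0592).

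**Figure D5:**
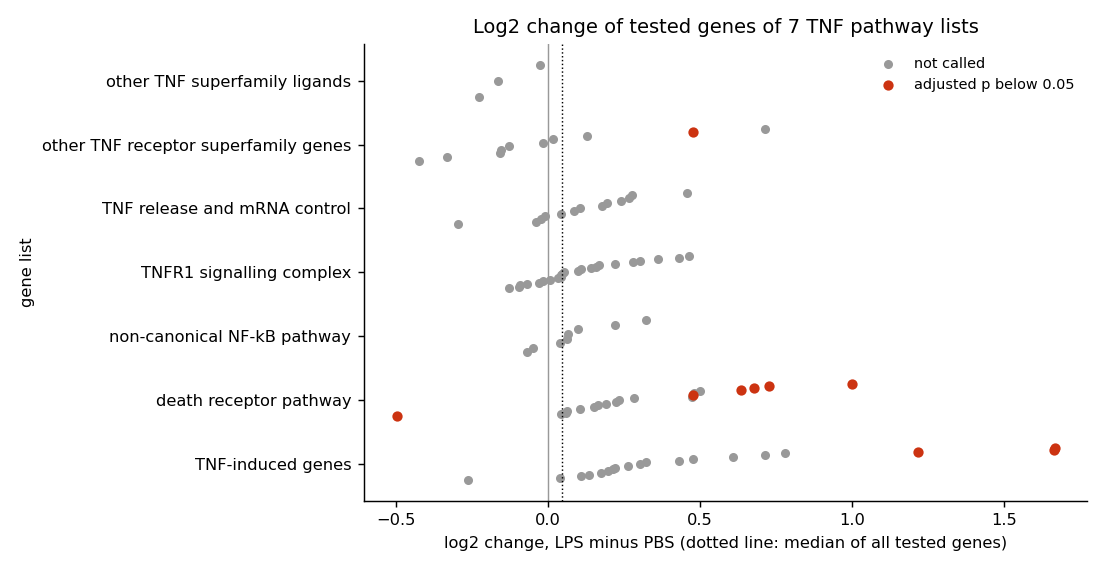
Log2 change, LPS minus PBS, of each tested gene of 7 TNF pathway lists, with genes called at an adjusted p below 0.05 in red, others in grey, and a dotted line at 0.05, the median of all tested genes. The called genes lie in the receptor, death receptor and TNF-induced lists, the latter reaching 1.67, and the single fall is Faim2 at -0.50.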

How the data were processed

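The 10 libraries are bulk RNA-seq, 5 per group. Build mm10 and the tools STAR 2.5, HTSeq 0.6.1 and DESeq2 (its version written as 2) are named per the submitters' processing notes; settings, the annotation release and strandedness are not given in the sources used here. Expression of every gene was deposited by the authors as FPKM. For 908 genes with an adjusted p-value below 0.05, the authors' table also gives raw read counts, a normalized signal (each deposited count divided by 1 size factor per library), log2 fold changes and p-values, per the file headers.

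Gene symbols were matched by Ensembl ID for 34490 genes, 3 more carried one only in the deposited comparison, and 782 stayed unnamed. Library totals were read from the listed counts, and whole reads were recovered from FPKM for 23059 of 23059 genes above 0 (tolerance at most 0.001 reads; at least 99.98% of each library). Recovered reads equalled the deposited counts for 907 of 908 listed genes. These depths limit counting error only.

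A gene entered the test, limma 3.58.1 (R 4.3.3, intensity trend, two-sided) on log2(FPKM + 1), which understates changes of low genes, if it reached 1 FPKM in 5 or more libraries; group was the only term. A gene was called at an adjusted p below 0.05. edgeR 4.0.16 and DESeq2 1.42.0 ran on recovered reads of the same genes as alternatives, beside other pseudocounts, filters and scalings, a replicate block, a covariate (mean log2 level of 18 B and T cell markers) and fits without libraries. The procedures were tested on simulated data. The members and lists were chosen with earlier results of these data known. All members are named, and from each list up to 4 called genes of largest change or, with none called, the 2 of highest mean FPKM; the 3 nearest genes are by Pearson r. A gene that this rule would name is not reported here. Coordinates are those of GENCODE M21 on the same build; 585 of 905 shared listed genes have the same coordinates there, so the authors' annotation release differs.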

Additional observations from a re-analysis of the deposited data

Results flagged for a closer look

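In 5 of 60 groups of 5 glands examined for 29 genes and the Tnfrsf1b to Tnfrsf1a ratio, 1 gland stood apart from the other 4; chance gives about 1 in 20. In PBS glands these were Lta at 1.59 FPKM and Tnfrsf1b at 4.83 FPKM, both in PBS replicate 2, and Bak1 at 14.8 FPKM and Eda2r at 5.44 FPKM, both in PBS replicate 3. In LPS glands it was Tnfrsf23 at 18.1 FPKM in LPS replicate 5.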

How the results depend on the processing

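With pseudocounts of 0.1 or 5 no count moved by over 1.5 times. Of all tested genes 300 rose and 69 fell. These counts were 101 and 25 with no filter, 128 and 348 with the milk protein scaling, under which the median change over tested genes was -0.13 in place of 0.05, 637 and 117 with the B and T cell covariate, 8 and 0 without the 4 libraries of highest B and T cell score, and 546 and 300 in DESeq2. The falls numbered 145 with quantile normalization and 132 in edgeR. Leaving out single libraries gave 121 to 429 rises and 27 to 88 falls. Of the 9 family genes 2 rose, but 0 with no filter, with the milk protein scaling or without the 4 libraries, 1 with median-of-ratios or quantile scaling, and 4 with the covariate; leaving out single libraries gave 0 to 2. Of the pathway genes 8 rose and 1 fell. The counts were 2 and 0 with no filter, 18 and 2 with the replicate block, and 0 and 0 without the 4 libraries; the rises numbered 3 with the milk protein scaling and 13 with the covariate, and the falls 0 with a filter on a mean FPKM of 5 or with quantile scaling and 3 in DESeq2. Leaving out single libraries gave 3 to 11 rises and 0 to 1 falls. The cause was not tested. The log2 difference of the Tnfrsf1b to Tnfrsf1a ratio kept its direction and stayed above 0.05 in p, with 0.45 to 0.87 when single libraries were left out. Without the 4 libraries or with the replicate block, the exact test has too few splits to give a p below 0.05. Its p there is therefore no sign of stability.

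Directions turned for genes that were not called: Ltb in edgeR (-0.0346) and DESeq2 (-0.0317); Tnfrsf1a (-0.0306), Ltbr (-0.0594) and Zfp36l2 (-0.0395) with quantile scaling; Tnfrsf1a (-0.107), Ltbr (-0.140), Zfp36l2 (-0.109) and Rbck1 (-0.0406) with the milk protein scaling; and Tnfrsf1a (-3.25e-05), Tnfsf13 (0.218) and Tnfsf12 (0.0386) without the 4 libraries. Leaving out single libraries gave -0.122 to 0.0453 for Tnfsf13 and -0.272 to 0.00154 for Tnfsf13b.

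Same-numbered LPS and PBS libraries deviated from their group means with correlations of 0.099 to 0.494, of which 4 of 5 were above 0.1. For libraries of different number the correlations were -0.362 to 0.421, and 3 of 5 LPS libraries ran closest to their own number. The labels do not say that a number marks a single mouse, so the main fit took no pairs. Whether the numbers mark pairs was not settled. With the replicate number as a block 962 genes rose and 267 fell, Tnf was called (log2 change 0.86, adjusted p = 0.00330), as were Tnfsf10 (0.00241), Tnfrsf12a (0.00306), Eda2r (0.00668), Nfkb2 (0.0205) and Tnfrsf22 (0.0492), and the exact permutation p of the Tnfrsf1b to Tnfrsf1a ratio was 0.5.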

Other observations

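Eda2r, a receptor of the ectodysplasin branch of the TNF family, had the highest log2 change of the other receptors tested without a call (named after its values were seen). It was at 1.51, 1.62, 5.44, 2.34 and 1.78 FPKM in PBS replicates 1 to 5 and at 3.87, 3.93, 7.03, 5.42 and 2.79 FPKM in LPS replicates 1 to 5. The groups overlapped through PBS replicate 3, and the log2 change was 0.72 ± 0.26 (limma adjusted p = 0.179). Without PBS replicate 3, the library that stood apart, it was 0.96 with an adjusted p of 0.0277. That library was picked because its value was high, so this lower p is a description only. Leaving out any other single library gave adjusted p-values of 0.124 to 0.360.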
